A study of Mus musculus with 6 samples.

Results

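The genes that write, read and erase DNA methylation and histone marks were described in the refed livers of F1 males. The 44 members were chosen by gene symbol, and each symbol matched 1 of the 16727 identifiers analysed. They comprised 10 genes of DNA methylation, 19 of histone methylation and 15 of histone acetylation. Liver RNA-seq of 6 wild-type C57BL/6 males on normal chow was used, from 3 conF1-M mice, whose fathers drank normal water, and 3 iAsF1-M mice, whose fathers drank water with 250 ppb inorganic arsenic (iAs) for 6 weeks after weaning. All mothers and all F1 mice drank normal water, and the livers were taken in the late afternoon after 7 h of refeeding. For in vivo work, F1 cohorts were drawn at random from more than 5 litters of separate pairs, at most 2 mice a litter. The age, father and litter of each sequenced male are not given in the sources used here, so mice were treated as independent, p-values measure only the spread between these livers, and any shared father or litter was not modelled. The levels are FPKM, fragments scaled to the length of the gene and to the mapped fragments of the library, so that genes of different length can be compared. Values of single livers follow the order of the replicate numbers, with conF1-M first.

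Methyl groups on cytosine are placed by the DNA methyltransferases. Dnmt1 copies them after replication with the help of Uhrf1, Dnmt3a and Dnmt3b set them anew, the TET dioxygenases oxidize them and the MBD proteins include readers that bind methylated CG. On histones, methyltransferases and demethylases act at lysines where the mark can accompany active or silent genes, while acetyltransferases place acetyl groups that accompany open chromatin and deacetylases remove them. In the mouse liver, Hdac3 works with the NCoR corepressor in the daily control of lipid genes.

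The livers carried the RNA of hepatocytes, with albumin between 26547.72 and 40155.37 FPKM, and Mki67, a marker of dividing cells named after its values were seen, was at 0.26 FPKM or less in each of them. An estimate from the steps between low values put the libraries between 20950000 and 23350000 fragments, so that 1 fragment on 1 kb was worth 0.0428 to 0.0477 FPKM. The iAsF1-M livers were more dispersed than the conF1-M livers. Over all 9695 genes tested, only iAsF1-M 3 lay nearer to the other group than to its own. It lay 35.0 from the other iAsF1-M livers and 28.0 from the conF1-M livers (mean Euclidean distance of log2 values). For iAsF1-M 2 these distances were 33.6 and 36.6, and the conF1-M livers lay 22.7 to 24.4 from their own group. Over the 38 members tested, the distances were 1.22 and 1.23 for iAsF1-M 3. For iAsF1-M 2 they were 1.29 and 1.8, the largest of any liver. Over all genes, 6 passed the threshold with iAsF1-M 3 and 73 without it. Omitting a control liver gave 3 (conF1-M 1), 3 (conF1-M 2) and 13 (conF1-M 3). The median log2 fold change over all genes tested was -0.066. In bulk liver, fewer cells of a type and less RNA per cell cannot be told apart.

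None of the members passed the test between the groups, and the largest difference was in Hdac3. Its mean level in iAsF1-M, 9.0 ± 2.06 FPKM (SD, n = 3), was 0.617 times that in conF1-M, 14.6 ± 0.884 FPKM (SD, n = 3). The test was limma on log2(FPKM + 1), run where the mean over the 6 livers reached 1 FPKM, with adjusted p under 0.05 as the threshold. It covered 38 members, and the other 6, Dnmt3b, Uhrf1, Tet1, Tet2, Hdac4 and Hdac7, had lower means. Over all genes tested 0.0619% passed, and of the members 0 of 38, with adjusted p from limma between 0.46 and 0.98. At an unadjusted p under 0.05 from limma, 4 members were lower in iAsF1-M, Hdac3, Hdac2, Hdac11 and Ehmt2, and none was higher, where 6.75% of all genes tested were lower and 1.42% were higher. Of the 38 members, 30 had a lower fitted value in iAsF1-M (78.9%, against 69.6% of all genes tested), and their median log2 fold change of -0.067 was close to the -0.066 of all genes. This balance depended on the scaling between libraries. After quantile normalization 20 members were lower and 18 higher. Of all genes at an unadjusted p under 0.05 from limma, 350 were then lower and 333 higher, against 654 and 138 without it. The members at that level were then Hdac3, lower, and Ezh1, higher, as with median-ratio scaling or with a trend over transcript length removed. After a TMM-like scaling between libraries they were Hdac3 and Hdac11, lower, and Ezh1, higher. By class the median was -0.15 for DNA methylation, -0.046 for histone methylation and -0.075 for histone acetylation. The sign of the histone methylation median turned with the scaling, to 0.003 with median-ratio scaling and 0.015 after quantile normalization.

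**Figure D1:**
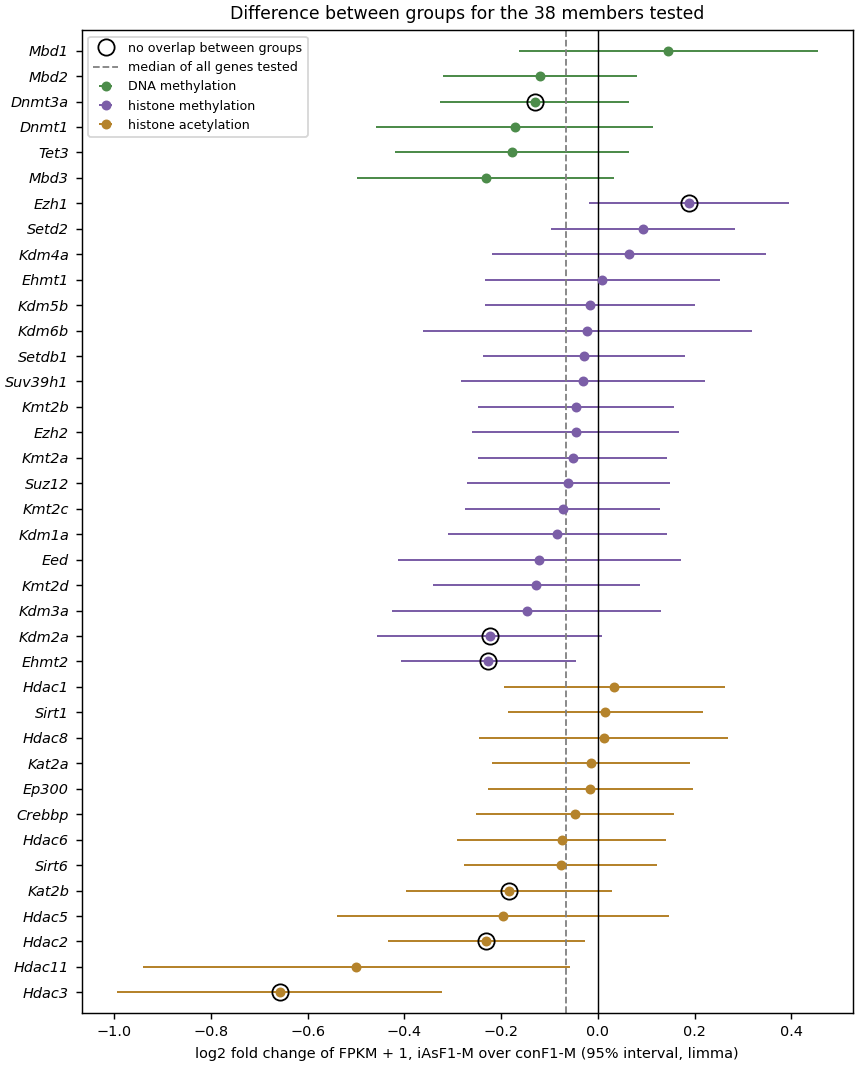
Log2 fold change of FPKM + 1 between iAsF1-M and conF1-M livers for the 38 members tested (points), with the 95% interval from limma (bars), by class. Hdac3 at -0.66 and Hdac11 at -0.50 lie farthest from 0, the dashed line is the median of all genes tested at -0.066, and circles mark the 7 members whose groups did not overlap.

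In 7 of the 38 members the 3 iAsF1-M livers all lay on one side of the 3 conF1-M livers. Dnmt3a, Ehmt2, Kdm2a, Hdac2, Hdac3 and Kat2b were below, and Ezh1 was above. That made 6 lower and 1 higher, while 11.8% of all genes tested were separated with iAsF1-M lower and 2.37% with iAsF1-M higher. After a TMM-like scaling between libraries Ehmt2, Hdac2 and Hdac3 were still separated below, Ezh1 and Setd2 were separated above, and Dnmt3a, Kdm2a and Kat2b overlapped. With that scaling the shares over all genes were 6.53% lower and 5.81% higher.

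**Figure D2:**
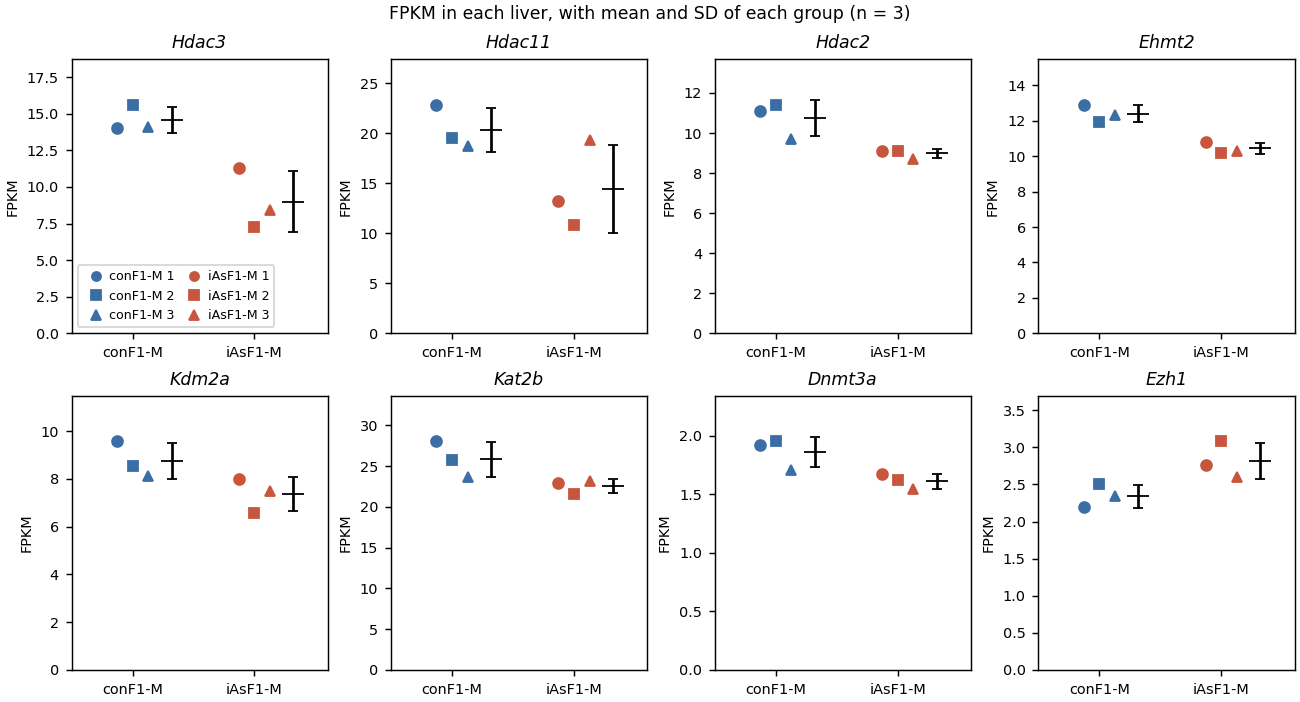
FPKM in each liver for the 7 members whose groups did not overlap and for Hdac11, with the mean and SD of each group beside the points (n = 3) and a linear axis from 0. For Hdac3 the iAsF1-M livers lie at 7.28 to 11.29 FPKM, under all conF1-M livers, while for Hdac11 iAsF1-M 3 at 19.3 FPKM lies within the conF1-M range.

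Since DNA methyltransferases act at CG dinucleotides, the 250 bases before the start site are shown for the separated members that have 1 start site in the RefSeq promoter table (GRCm38.p6), with each CG in capitals. Ezh1 (chromosome 11 from 101226464 to 101226713, minus strand), the member with a higher level in all iAsF1-M livers, has 14 CG, a number that 29.4% of all promoters reach or exceed. Hdac2 (chromosome 10 from 36974294 to 36974543, plus strand), with a lower level in all of them, has 27 CG, reached or exceeded by 8.56% of promoters. Of the 44 members 37 matched the table, and their 51 promoters had a median of 20 CG against 6 in the 32851 promoters of all genes. That background covers 27025 genes, more than the 16727 identifiers analysed here, and genes with several start sites count more than once. The promoters of the genes tested were not compared apart. Methylation of the promoters was not measured.
Ezh1: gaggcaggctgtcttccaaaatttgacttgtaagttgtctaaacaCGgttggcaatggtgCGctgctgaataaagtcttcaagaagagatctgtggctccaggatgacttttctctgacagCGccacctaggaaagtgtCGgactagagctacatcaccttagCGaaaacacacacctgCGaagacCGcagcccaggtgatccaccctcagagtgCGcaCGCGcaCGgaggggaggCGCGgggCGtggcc
Hdac2: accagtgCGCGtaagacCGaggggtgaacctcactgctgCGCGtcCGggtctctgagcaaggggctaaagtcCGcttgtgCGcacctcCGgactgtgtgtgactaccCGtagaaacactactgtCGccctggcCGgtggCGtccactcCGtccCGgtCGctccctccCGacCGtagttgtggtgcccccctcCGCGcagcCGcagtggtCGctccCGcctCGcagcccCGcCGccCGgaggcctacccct

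Levels of the DNA methylation machinery ran from 0 to 29.31 FPKM. Of the de novo enzymes Dnmt3a was the more abundant, at 9.5 ± 0.768 times the FPKM of Dnmt3b (SD, n = 3) in conF1-M and 9.04 ± 3.44 times (SD, n = 3) in iAsF1-M livers, a ratio chosen like those below after the values were seen. Dnmt3a (ENSMUSG00000020661, chromosome 12 of GRCm38 from 3806007 to 3914443) was 1.92, 1.95 and 1.71 FPKM in conF1-M against 1.67, 1.62 and 1.54 FPKM in iAsF1-M. All iAsF1-M livers lay below, by a log2 fold change of -0.13 (95% interval -0.33 to 0.064, adjusted p = 0.65 from limma). The gap, from 1.71 to 1.67 FPKM, was small, and the groups overlapped after the TMM-like or median-ratio scaling. The maintenance enzyme Dnmt1 was 1.44, 1.33 and 1.05 FPKM in conF1-M against 1.29, 0.77 and 1.01 FPKM in iAsF1-M, and the groups overlapped (log2 fold change -0.17, adjusted p = 0.68 from limma). Dnmt3b was 0.22, 0.19 and 0.18 FPKM against 0.13, 0.2 and 0.25 FPKM, and the iAsF1-M livers lay on both sides of the conF1-M livers.
Uhrf1, the protein that brings Dnmt1 to hemimethylated DNA and is abundant in dividing cells, was 0.1, 0.21 and 0.11 FPKM in conF1-M against 0.1, 0.14 and 0.09 FPKM in iAsF1-M. The values were low throughout and overlapped. Among 27 proliferation genes 21 had a mean FPKM under 1, and of the 6 tested none passed. The 2 most abundant were Pcna, the clamp of the replication fork, at 18.0 ± 0.294 FPKM (SD, n = 3) against 17.1 ± 1.44 FPKM (SD, n = 3), and Tyms, an enzyme of thymidylate synthesis, at 4.75 ± 0.327 FPKM against 4.5 ± 0.282 FPKM (SD, n = 3 each).
Of the TET dioxygenases, Tet3 was the most abundant at 1.75, 2.07 and 1.49 FPKM in conF1-M against 1.36, 1.39 and 1.58 FPKM in iAsF1-M. Only iAsF1-M 3 reached into the conF1-M range (log2 fold change -0.18, adjusted p = 0.62 from limma). Tet2 was 0.96, 0.88 and 0.7 FPKM against 0.9, 0.88 and 0.85 FPKM. Tet1 was listed at 0.01, 0, 0.01, 0, 0.02 and 0.02 FPKM across the 6 livers, the lowest of all members.
The methyl-binding genes were the most abundant of this class. Mbd2, which binds methylated CG, was 28.06, 29.31 and 26.66 FPKM in conF1-M against 25.0, 24.64 and 27.5 FPKM in iAsF1-M, with a log2 fold change of -0.12. Mbd3, a subunit of the NuRD complex that does not need the methyl group, was 22.92, 17.09 and 19.01 FPKM against 16.01, 17.23 and 16.23 FPKM, and iAsF1-M 2 lay inside the conF1-M range (log2 fold change -0.23, adjusted p = 0.62 from limma). Mbd1, another methyl-CG binder, had a higher mean in iAsF1-M, at 9.28, 10.81 and 7.81 FPKM against 9.48, 11.9 and 9.7 FPKM, with overlap and an adjusted p of 0.74 from limma. For the members under the mean of 1 FPKM, exact two-sided permutation tests on FPKM gave p between 0.2, for Hdac4 and Hdac7, and 1.0, for Dnmt3b, where 3 livers against 3 cannot go below 0.1.

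**Figure D3:**
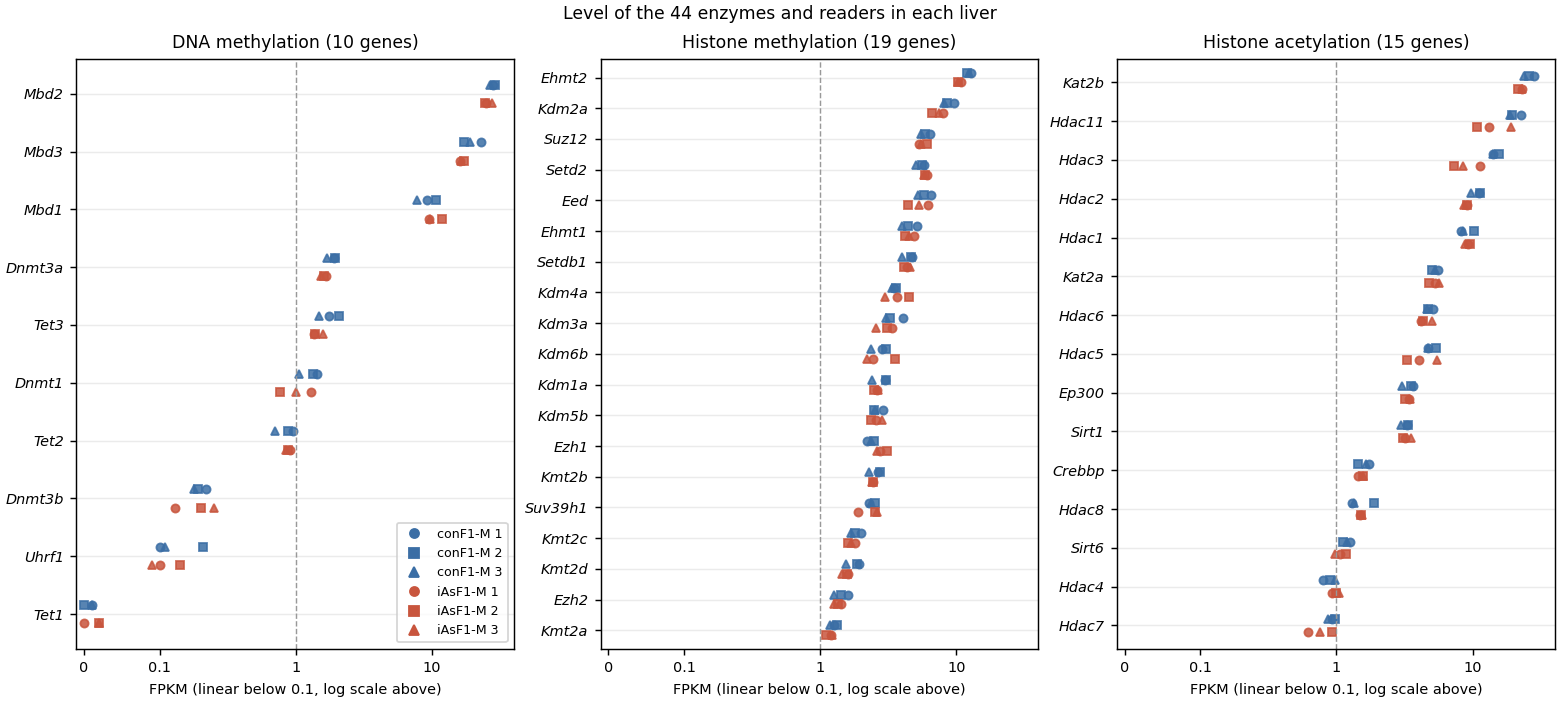
FPKM of the 44 members in each liver, by class, from the lowest gene at the bottom to the highest. The axis is linear below 0.1 FPKM and logarithmic above, the dashed line marks 1 FPKM, and Mbd2, Kat2b and Ehmt2 are the highest of their classes, while Tet1 lies near 0 in all 6 livers.

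Histone methylation genes lay between 1.1 and 12.9 FPKM and all 19 were tested. Within Polycomb complex 2, which methylates lysine 27 of histone H3, the enzyme Ezh1 of non-dividing cells was separated and the enzyme Ezh2 of dividing cells was not. Ezh1 (ENSMUSG00000006920, chromosome 11 from 101191115 to 101226463), whose promoter is shown above, was 2.19, 2.5 and 2.34 FPKM in conF1-M against 2.76, 3.08 and 2.6 FPKM in iAsF1-M. The difference of 0.19 on the log2 scale had a 95% interval from -0.019 to 0.40 and an adjusted p of 0.62 from limma. With the TMM-like scaling the unadjusted p of Ezh1 was 0.028 and the adjusted p 0.72, both from limma. Ezh2 was 1.43 ± 0.175 FPKM (SD, n = 3) against 1.35 ± 0.0802 FPKM (SD, n = 3). Within each liver, Ezh1 over Ezh2 was 1.36, 1.75 and 1.86 in conF1-M and 1.93, 2.26 and 2.05 in iAsF1-M. It did not overlap, but this ratio rests on the same separated Ezh1 values. This and the other ratios were chosen after the values were seen and were not tested. The core subunit Eed, which binds the mark, was 6.52, 5.76 and 5.19 FPKM against 6.18, 4.43 and 5.27 FPKM, and the groups overlapped. Suz12, the scaffold of the complex, was 5.93 ± 0.445 FPKM (SD, n = 3) against 5.64 ± 0.403 FPKM (SD, n = 3).

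**Figure D4:**
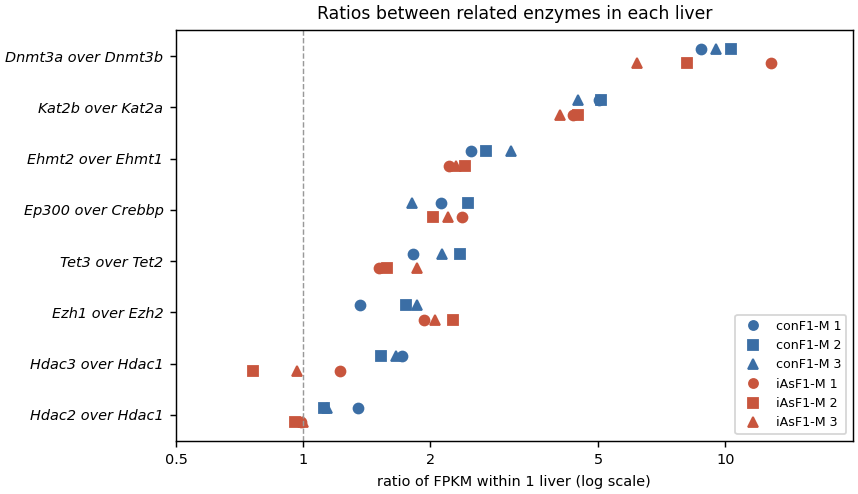
Ratio of FPKM between related enzymes within each liver, on a log axis, with 3 conF1-M and 3 iAsF1-M livers as points. Hdac3 over Hdac1 lies at 1.53 to 1.71 for conF1-M and at 0.762 to 1.22 for iAsF1-M, while Ezh1 over Ezh2 lies higher in all iAsF1-M livers and Ep300 over Crebbp overlaps. The ratios that do not overlap rest on the separated values of Hdac3, Hdac2, Ehmt2 and Ezh1.

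The KMT2 enzymes, which methylate lysine 4 of histone H3 at promoters and enhancers, were low and close between the groups. Kmt2d, the one with the smallest p, was 1.94, 1.86 and 1.55 FPKM in conF1-M against 1.6, 1.58 and 1.45 FPKM in iAsF1-M (log2 fold change -0.13, adjusted p = 0.68 from limma). Kmt2c was 1.98, 1.81 and 1.68 FPKM against 1.79, 1.59 and 1.67 FPKM. Both pairs of groups overlapped, as did those of Kmt2a, the lowest gene of the class at 1.26, 1.33 and 1.18 FPKM against 1.2, 1.1 and 1.23 FPKM, and Kmt2b.
At lysine 9 of histone H3, a mark of silent chromatin, Ehmt2 was separated with iAsF1-M lower and its partner Ehmt1 overlapped. Ehmt2 (ENSMUSG00000013787, chromosome 17 from 34898469 to 34914052) encodes G9a and was the highest gene of the class, at 12.9, 11.95 and 12.33 FPKM in conF1-M against 10.81, 10.2 and 10.32 FPKM in iAsF1-M. The groups did not overlap, with a gap larger than the spread in either of them (log2 fold change -0.23, 95% interval -0.41 to -0.046, unadjusted p = 0.020, adjusted p = 0.59 from limma). With the TMM-like scaling the unadjusted p of Ehmt2 was 0.06 from limma. Ehmt1, which forms a heterodimer with G9a, was 4.51 ± 0.602 FPKM (SD, n = 3) against 4.53 ± 0.337 FPKM (SD, n = 3). Ehmt2 over Ehmt1 was 2.5, 2.71 and 3.11 in conF1-M and 2.21, 2.42 and 2.3 in iAsF1-M livers. This ratio rests on the same separated Ehmt2 values. Setdb1, the enzyme that Trim28 brings to retroelements, was 4.74, 4.62 and 3.98 FPKM against 4.33, 4.13 and 4.53 FPKM, with overlap. Setdb1 overlaps the more abundant Cers2 on the other strand, so its reads may be shared. Suv39h1, an enzyme of pericentric heterochromatin, was 2.40 ± 0.123 FPKM (SD, n = 3) against 2.35 ± 0.398 FPKM (SD, n = 3).
Setd2, which trimethylates lysine 36 of histone H3 in gene bodies, was 5.78, 5.6 and 5.07 FPKM in conF1-M against 6.04, 5.93 and 5.76 FPKM in iAsF1-M, with iAsF1-M 3 just inside the conF1-M range (log2 fold change 0.093, adjusted p = 0.73 from limma).
Among the demethylases, Kdm2a, which acts on lysine 36 and binds unmethylated CG, was separated at 9.57, 8.56 and 8.12 FPKM in conF1-M against 7.98, 6.58 and 7.51 FPKM in iAsF1-M. The nearest livers, conF1-M 3 and iAsF1-M 1, differed little beside the spread within each group (log2 fold change -0.22, 95% interval -0.46 to 0.009, adjusted p = 0.62 from limma). Kdm3a, a lysine 9 demethylase, was 4.05, 3.26 and 3.05 FPKM against 3.39, 3.08 and 2.58 FPKM, with overlap. The others, Kdm1a, Kdm4a, Kdm5b and Kdm6b, overlapped too, with log2 fold changes between -0.084 and 0.065, and Kdm1a shares bases with Luzp1 on the other strand.

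The deacetylases held the largest differences of all members. Hdac3 (ENSMUSG00000024454), the catalytic subunit of the NCoR complex, was 14.05, 15.61 and 14.11 FPKM in conF1-M against 11.29, 7.28 and 8.44 FPKM in iAsF1-M. Every iAsF1-M liver lay below every conF1-M liver, also iAsF1-M 3, and the spread was wider in the iAsF1-M group. The log2 fold change was -0.66 (standard error 0.145, 95% interval -0.995 to -0.32, unadjusted p = 0.0021, adjusted p = 0.46 from limma). With 1 liver left out at a time its size was smallest when iAsF1-M 2 was dropped (-0.53) and largest when iAsF1-M 1 was dropped (-0.82), and with iAsF1-M 3 dropped it was -0.63. Over the 18 other settings tried, the adjusted p of Hdac3 from limma ran between 0.12 and 0.99. Partners of Hdac3 in this complex, named after their values were seen, had smaller fold changes. The corepressor Ncor1 was 16.99, 15.85 and 14.35 FPKM in conF1-M against 15.54, 14.91 and 14.35 FPKM in iAsF1-M. Hdac3 over Ncor1 was 0.932 ± 0.0907 (SD, n = 3) in conF1-M and 0.601 ± 0.12 (SD, n = 3) in iAsF1-M. It did not overlap, but it rests on the same Hdac3 values. Of the other subunits, Tbl1xr1 had a log2 fold change of 0.022, Gps2 of -0.15 and Tbl1x of -0.20. Tbl1x was 9.17, 8.38 and 7.52 FPKM against 7.5, 6.45 and 7.49 FPKM, separated by a very small gap, from 7.52 to 7.5 FPKM. None of these 4 genes passed the test.
Hdac2 (ENSMUSG00000019777, chromosome 10 from 36974544 to 37001889), a class I enzyme of the Sin3, NuRD and CoREST complexes with the CG-rich promoter shown above, was 11.09, 11.41 and 9.71 FPKM in conF1-M against 9.12, 9.11 and 8.71 FPKM in iAsF1-M. The iAsF1-M livers were close to each other and all below (log2 fold change -0.23, 95% interval -0.44 to -0.027, unadjusted p = 0.031, adjusted p = 0.59 from limma). With the TMM-like scaling the unadjusted p of Hdac2 from limma was no longer under 0.05. Its close relative Hdac1 was 8.97 ± 1.05 FPKM (SD, n = 3) against 9.17 ± 0.414 FPKM (SD, n = 3). Hdac2 over Hdac1 was 1.35, 1.12 and 1.14 in conF1-M and 0.987, 0.954 and 0.998 in iAsF1-M livers, where the pair was nearly equal. This ratio rests on the same separated Hdac2 values. Hdac8, the remaining class I gene, was 1.51 ± 0.336 FPKM (SD, n = 3) against 1.52 ± 0.03 FPKM (SD, n = 3).
Hdac11 (ENSMUSG00000034245, chromosome 6 from 91156665 to 91174692), the class IV enzyme that removes long fatty acyl groups, split the iAsF1-M group. It was 22.83, 19.48 and 18.72 FPKM in conF1-M against 13.18, 10.83 and 19.3 FPKM in iAsF1-M, so that iAsF1-M 1 and 2 lay below all conF1-M livers and iAsF1-M 3 among them. The log2 fold change of -0.50 (standard error 0.19, unadjusted p = 0.031, adjusted p = 0.59 from limma) was -0.72 without iAsF1-M 3, with an adjusted p of 0.057 from limma, the lowest for Hdac11 in a range up to 0.99 over the 18 other settings.
The class IIa gene Hdac5, which shuttles between nucleus and cytoplasm, was also split, at 4.74, 5.4 and 4.68 FPKM in conF1-M against 4.01, 3.3 and 5.43 FPKM in iAsF1-M. For Hdac5, iAsF1-M 1 and 2 lay below all conF1-M livers and iAsF1-M 3 above all of them. Its log2 fold change was -0.20 (adjusted p = 0.69 from limma), and without iAsF1-M 3 it was -0.35 (adjusted p = 0.18 from limma, in a range of 0.18 to 0.99 over the 18 other settings). Hdac4 was 0.79, 0.9 and 0.97 FPKM against 0.93, 1.0 and 1.04 FPKM, and Hdac7, a class IIa gene known from endothelial cells and the lowest of the class, was 0.93, 0.97 and 0.86 FPKM against 0.62, 0.92 and 0.76 FPKM. Both overlapped between the groups. The 12 sinusoidal endothelial markers summed to 84.7 to 109 FPKM in conF1-M against 64.3 to 77.9 FPKM in iAsF1-M livers. Of their 12 fitted values 11 were lower (91.7%, against 69.6% of all genes tested). None was at 0, and 0 passed the threshold. In 6 markers the groups were separated with iAsF1-M lower, where 11.8% of all genes tested were. At an unadjusted p under 0.05 from limma, 5 were lower, where 6.75% of all genes tested were. None was separated or at that level with iAsF1-M higher, and these counts were not repeated with other scalings. Clec4g was the most abundant, at 27.1 ± 3.24 FPKM against 19.7 ± 1.53 FPKM (SD, n = 3 each). Fcgr2b followed, at 19.1 ± 3.27 FPKM against 13.4 ± 1.55 FPKM (SD, n = 3 each). Dnase1l3, named after its values were seen, had the smallest p of the list (log2 fold change -0.55, adjusted p = 0.36 from limma). The part of these cells in the values of Hdac7 and other members was not tested. Hdac7 also overlaps the more abundant Slc48a1 on the other strand. Hdac6, the class IIb deacetylase of tubulin, was 5.08, 4.69 and 4.6 FPKM against 4.18, 4.29 and 5.05 FPKM.
The members held 2 NAD-dependent sirtuins, Sirt1 and Sirt6, and both overlapped between the groups. Sirt1 was 3.29, 3.35 and 3.0 FPKM against 3.17, 3.07 and 3.54 FPKM, and Sirt6 was 1.25, 1.12 and 1.19 FPKM against 1.07, 1.17 and 0.98 FPKM.
Of the acetyltransferases, Kat2b (ENSMUSG00000000708, chromosome 17 from 53566861 to 53672720), which encodes PCAF, was the highest, at 28.04, 25.75 and 23.67 FPKM in conF1-M against 22.92, 21.58 and 23.2 FPKM in iAsF1-M. It was separated by a small gap (log2 fold change -0.18, 95% interval -0.40 to 0.028, adjusted p = 0.62 from limma). Its paralog Kat2a, or GCN5, was 5.32 ± 0.261 FPKM (SD, n = 3) against 5.26 ± 0.445 FPKM (SD, n = 3). The coactivators Crebbp, at 1.73, 1.44 and 1.66 FPKM against 1.43, 1.57 and 1.57 FPKM, and Ep300, at 3.40 ± 0.348 FPKM (SD, n = 3) against 3.35 ± 0.147 FPKM (SD, n = 3), overlapped, with log2 fold changes of -0.048 and -0.016.

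By their medians the members had lower levels and longer transcripts than all genes, which their choice did not use, but not every member did. Of the 38 tested, 28 lay under the median level and 27 over the median transcript length of all genes tested, while Mbd2, at 1953 bases, and Mbd3, at 1662 bases, were both abundant and short. Over the 38 tested the median level was 3.49 FPKM against 7.11 FPKM for all genes tested, and the median of the longest annotated transcript was 4658 bases against 3257. Over all genes, the median log2 fold change was -0.11 for transcripts under 2000 bases and -0.041 for those of 10000 bases or more. With this trend removed, the members' median was -0.017 and that of all genes 0.

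Other genes of the same pathways were described from 3 lists with 108 measured genes, and 0 passed the test. At an unadjusted p under 0.05 from limma, 2, 2 and 4 genes of the lists of DNA methylation, histone methylation and histone acetylation were lower in iAsF1-M and 0 were higher. These are 18.2%, 4.17% and 10.5% of the genes tested in each list, where 6.75% of all genes tested were lower and 1.42% higher. Separated genes of these lists were all lower in iAsF1-M. They made 36.4%, 10.4% and 18.4% of those tested, where 11.8% of all genes tested were separated lower and 2.37% higher. These shares depend on the scaling between libraries. With the TMM-like scaling 6.53% of all genes tested were separated lower and 5.81% higher, and the lists were not recounted. Among 11 tested genes of DNA methylation, 7 had a lower and 4 a higher fitted value in iAsF1-M, with a median log2 fold change of -0.016. The share with a lower fitted value was 63.6%, against 69.6% of all genes tested. The smallest p belonged to Gadd45a, which promotes demethylation, at 2.49, 2.23 and 1.97 FPKM against 1.46, 1.15 and 1.81 FPKM, and to Cxxc5, a protein with a CG-binding domain, at 17.06, 14.05 and 16.62 FPKM against 10.89, 11.42 and 14.08 FPKM. Gadd45a was separated and Cxxc5 was not, with adjusted p of 0.58 for both from limma. Among 48 tested genes of histone methylation, 28 were lower (58.3%) and 20 higher, with a median of -0.036. Phf1, a Polycomb-like partner of Ezh2, was separated at 6.97, 6.39 and 5.81 FPKM against 4.5, 4.26 and 5.04 FPKM (log2 fold change -0.40, adjusted p = 0.56 from limma). Kmt5a, which methylates lysine 20 of histone H4, overlapped at 16.24, 12.97 and 13.32 FPKM against 11.04, 9.95 and 12.98 FPKM (log2 fold change -0.30, adjusted p = 0.60 from limma). Among 38 tested genes of histone acetylation, 28 were lower (73.7%) and 10 higher, with a median of -0.065. Kat8, the acetyltransferase of lysine 16 of histone H4, was 9.75, 8.88 and 9.14 FPKM against 8.03, 7.13 and 6.4 FPKM, and Sirt7, a nucleolar sirtuin, was 16.29, 17.79 and 16.94 FPKM against 11.15, 12.79 and 15.39 FPKM. Both were separated with iAsF1-M lower, with adjusted p of 0.58 from limma. Sirt3, a mitochondrial sirtuin named after its values were seen, was separated too, at 40.28, 38.39 and 39.16 FPKM against 29.8, 31.03 and 35.97 FPKM (log2 fold change -0.28, adjusted p = 0.59 from limma).
Markers of other liver cells were set beside these values. Stellate cell markers, led by Dcn and Ecm1, had a lower fitted value in 8 of 8 tested, where 69.6% of all genes tested did. Their summed levels were 158 to 210 FPKM in conF1-M against 137 to 160 FPKM in iAsF1-M livers. All sums include measured markers that were not tested. Those of Kupffer cells and macrophages, led by Cd5l and C1qa, had lower fitted values in 8 of 12 (66.7%), at 178 to 202 FPKM and 111 to 281 FPKM. Those of hepatocytes, led by Alb and Cyp2e1, had them in 4 of 11 (36.4%), at 59500 to 63600 FPKM and 51100 to 67300 FPKM. The cholangiocyte markers, with Spp1 the most abundant, summed to 15.2 to 20.9 FPKM and 14 to 24.9 FPKM, those of lymphocytes, led by Cd79a and Ptprc, to 5.51 to 6.50 FPKM and 4.66 to 6.78 FPKM, and those of neutrophils, led by S100a9 and S100a8, to 3.28 to 4.76 FPKM and 2.26 to 3.93 FPKM. None of these markers passed the test, and none was at 0 in every liver. The part of these cells in the members' values was not tested.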

How the data were processed

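RNA-seq of 6 livers, 3 conF1-M and 3 iAsF1-M, was analysed, grouped by the sample labels. The authors filtered paired-end reads for adapters, low-score and unknown bases and aligned them to GRCm38 with HISAT2. The values they deposited are FPKM, rounded to 2 decimals, and the program and annotation behind them are not given in the sources used here. Identifiers were paired with symbols through a gene name table and with positions through GENCODE M21 (GRCm38), and symbols were found for 16706 of 16727. Another 16 identifiers, each on 2 lines, were left out. Deposited FPKM are not counts, so the authors' DESeq2 test was not run. Instead log2(FPKM + 1) was fitted with limma 3.58.1 in R 4.3.3 (lmFit, then eBayes with its trend option) for 9695 genes whose mean reached 1 FPKM, with no block, two-sided, and adjusted by Benjamini and Hochberg over all genes tested at 0.05. Library depth was estimated from the spacing of low FPKM among genes annotated with 1 transcript. At that depth 44.8% to 57.8% of those values came within 0.15 of whole fragments, so counts were not recovered. Fold changes on FPKM + 1 understate those of low genes.

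The members and gene lists were chosen with earlier results of these data known. Of 216 listed genes, 212 were measured and 4 were not analysed here. The rule for named genes took every DNA methylation member, every member without overlap, the 2 with the smallest p of each role, the highest and lowest of each class, the 2 smallest p of each other chromatin list and the 2 most abundant genes of each proliferation or cell type list. Whether counting used strand is not given, so reads of overlapping genes may be shared. Protein sequences were not used here, and some listed genes named by this rule or as partners are not reported here. Promoter sequences are from RefSeq (GRCm38.p6). Alternatives were other pseudocounts, filters, scalings, variance models, library weights, removal of a trend with transcript length, a replicate block and leaving out each liver. Python 3.11.15 was used for the summaries.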

Additional observations from a re-analysis of the deposited data

How the results depend on the processing

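No member passed the threshold in any of the 18 alternatives, and the lowest adjusted p of a member was 0.057 from limma, for Hdac11 without iAsF1-M 3. Of 684 values of single members over these alternatives, 58 had another sign than the reported one, in 17 members whose log2 fold change was at most 0.077 in size, and 18 members were lower and 3 higher throughout. Over all genes 6 passed, against 3 when low genes were not filtered, and between 3 (without conF1-M 1 or conF1-M 2) and 73 (without iAsF1-M 3) when 1 liver was left out, with 13 without conF1-M 3. The 7 members without overlap became 8 to 18 with 1 liver left out, where fewer livers separate more easily, with 13 on omitting conF1-M 2 (34.2% of members, 21.7% of all genes tested), 18 on omitting conF1-M 3 (47.4%, 29.4%) and 14 on omitting iAsF1-M 3 (36.8%, 35.4%), against 18.4% and 14.2% with all livers. This count was not run after quantile normalization or with the length trend removed. The median log2 fold change of DNA methylation genes, -0.15, was -0.078 with no filter, -0.22 with a pseudocount of 0.1 and -0.086 after quantile normalization. That of histone acetylation genes, -0.075, was -0.013 with median-ratio scaling, -0.003 after quantile normalization and -0.015 with the trend over transcript length removed. That of histone methylation genes, -0.046, was 0.003 with median-ratio scaling and 0.015 after quantile normalization. Single-liver omissions kept these class medians within -0.21 to -0.10 for DNA methylation, -0.10 to -0.027 for histone methylation and -0.095 to -0.033 for histone acetylation. The cause of these shifts was not tested. Among genes at an unadjusted p under 0.05 from limma, 654 were lower and 138 higher, against 350 and 333 after quantile normalization, where the members at that level were Hdac3, lower, and Ezh1, higher. In the lists of other genes and markers 0 passed, and 1, Marco, did without iAsF1-M 3 (0 to 1 with 1 liver left out). Same-numbered livers had correlations of 0.167, -0.10 and -0.021 in their deviations, so the numbers were not taken as pairs. With a replicate block, 5 genes and 0 members passed, and Hdac3 had an adjusted p of 0.48 from limma. Depth limits the lowest values, since by the rough estimate 1 fragment on 1 kb was worth 0.0428 to 0.0477 FPKM. Of the members only Tet1, with a longest annotated transcript of 14369 bases, had a mean under 0.1 FPKM, at 0.01.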
